A study of Mus musculus with 5 samples.

Results

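The cells described here were C1q-low mononuclear phagocytes that remained in T cell preparations of 4T1 mammary tumors after doxorubicin (DOX), a DNA-damaging anthracycline. They were chosen by their counts of unique molecular identifiers (UMIs, each standing for 1 captured RNA molecule). Among barcodes in which no fewer than 500 genes were seen and no more than 10% of UMIs were mitochondrial, a member held at least 10 UMIs of Lyz2 (lysozyme), at least 1 of Csf1r (the receptor for macrophage colony-stimulating factor) and fewer than 10 of C1qa, C1qb and C1qc together (the complement C1q chains of mature macrophages). It held no UMI of the T cell gene Cd3e, the epithelial gene Epcam, the dendritic cell genes Flt3 and Ccr7 or the neutrophil gene Cxcr2, and fewer than 3 of the fibroblast gene Dcn. The rule found 58 members among 6810 kept barcodes of the T cell libraries, 26 in the library from sensitive tumors and 32 in the library from resistant tumors.

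The study grew tumors of 4T1 breast cancer cells that carry the Thy1.1 antigen in the mammary fat pads of BALB/c animals and compared tumors that responded to DOX with tumors that did not. Both groups used here were BALB/c mice, 12 weeks old in the labels, given 3 intravenous doses of DOX at 5 mg/kg, 3 days apart, so the drug was common to both. There was 1 library per response, each a pool of 3 tumors, and neither an untreated T cell library nor a replicate library was at hand. T cells were enriched by magnetic removal of other cells, myeloid cells and CD90.1+ tumor cells among them, so the members are what that removal left and their shares do not give shares in a tumor. The labels call the cells of both libraries tumor residing T cells, but by their markers T cells were 52.7% and 54.7% of kept barcodes, beside fibroblasts, neutrophils, macrophages and the members.

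Monocytes are made in bone marrow, circulate in blood and enter inflamed tissue and tumors, a step that depends on the chemokine receptor Ccr2. Classical mouse monocytes carry Ly6C and high levels of S100 proteins and Plac8, and on entering a tumor they can mature into macrophages that gain C1q, Apoe and MHC class II. On the way they respond to interferon gamma from T cells and to microbial or damage signals, and both responses change their cytokines and antigen presentation.

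The sensitive library held 26 members of 3560 kept barcodes, 0.730% (exact binomial 95% interval 0.478 to 1.07). The resistant library held 32 of 3250, 0.985% (0.674 to 1.39). The ratio of the shares, sensitive over resistant, was 0.742 (0.443 to 1.24), so a difference was not detectable at this number of cells. Over all deposited barcodes, of which the mitochondrial limit removed many more in the resistant library, the ratio was 1.26 (0.751 to 2.11), on the other side of 1. Set against the C1q+ macrophages of the same libraries, which passed the same limits but held at least 10 C1q UMIs, the members made up 19.3% of 135 such cells (12.98 to 26.9) in the sensitive library and 25.6% of 125 (18.2 to 34.2) in the resistant library. Every interval here covers counting error only, and with 1 library per response no difference has a replicate check, so no p-value is given for any of them.

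The members were deeper than the median barcode of these libraries, but not than every cell class. The 26 sensitive members held 238405 UMIs, with a median of 9387 per cell (lowest 1468, highest 20348), and the 32 resistant members held 388431, with a median of 11618 (3274 to 26306). The libraries as a whole had medians of 4460 and 3354 UMIs per deposited barcode. T cells had medians of 4003 and 4580, while C1q+ macrophages were deeper than the members, at 12653 and 13360. The libraries differed in damage as well: 5.90% of sensitive barcodes and 45.7% of resistant barcodes exceeded the mitochondrial limit, and the median mitochondrial share of the members was 2.59% against 4.70%. Levels are therefore given as CPM, the UMIs of a gene per 1000000 UMIs summed over the members of a library, and the part of RNA damage in any difference was not tested.

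The values that chose the members are a description and support nothing. Lyz2 ran from 15 to 471 UMIs per cell in the sensitive library (median 57.5) and from 11 to 374 in the resistant library (median 115). Csf1r ran from 1 to 9 UMIs in the sensitive library. The C1q sum was at 0 in 14 sensitive and 22 resistant members and reached 6 and 8. Near that limit, 2 members per library held 5 or more C1q UMIs, while 4 sensitive cells with 13 to 19 and 9 resistant cells with 11 to 19 fell just outside. Near the Lyz2 limit, 3 sensitive and 4 resistant members held under 20 UMIs, and 2 and 4 cells with 5 to 9 were left out. A further 7 sensitive and 11 resistant cells met every limit but had no Csf1r UMI.

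The members were first set against the 2 defining genes of classical monocytes that the rule did not use. Ccr2 (ENSMUSG00000049103, GRCm38 chr9:124101950-124113557), the receptor that draws monocytes to Ccl2, had a UMI in 17 of 26 sensitive members (65.4%, exact binomial interval 44.3 to 82.8) and 19 of 32 resistant members (59.4%, 40.6 to 76.3). Ly6c2 (ENSMUSG00000022584, chr15:75108158-75111970), which encodes the Ly6C antigen, had a UMI in 9 of 26 (34.6%, 17.2 to 55.7) and 11 of 32 (34.4%, 18.6 to 53.2). Ly6c2 has a near-identical neighbour, Ly6c1, and reads of the pair may have been split between them. In all, 37 of the 58 members (63.8%) had a UMI of Ccr2 or Ly6c2 and 21 (36.2%) had neither. Depth did not separate these groups: the median depth of members with and without was 9387 and 8593 UMIs in the sensitive library and 11489 and 12279 in the resistant library. The name monocyte was thus borne out by Ccr2 or Ly6c2 in some of the members only, and they are called C1q-low cells here.

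To compare shares across cell classes of unequal depth, each cell was thinned at random to 3000 UMIs, and shallower cells were left out. At that depth Ccr2 was found in 54.2% of sensitive and 46.9% of resistant C1q-low cells, against 11.5% and 21.1% of C1q+ macrophages. Among fibroblasts, which should lack it and had median depths of 12735 and 13233 UMIs, it was seen in 4 of 672 and 0 of 500 thinned cells, which allows a share of up to 0.600% in the latter, so its share in the C1q-low cells was above that of free RNA. Thinned T cells of the sensitive library held Ccr2 as well, at 15.8%, above the 11.5% of macrophages there. Ly6c2 was found in 25% of the C1q-low cells of both libraries and in 1.0% and 2.2% of the macrophages, but T cells (28.6% and 14.6%) and fibroblasts (27.7% and 50.4%) carried it too, and so did 1 of 21 and 5 of 40 thinned neutrophils, so it did not single out these cells. Apoe, the lipid carrier of mature macrophages, was present in 83.3% and 81.2% of C1q-low cells and in all macrophages.

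**Figure D1:**
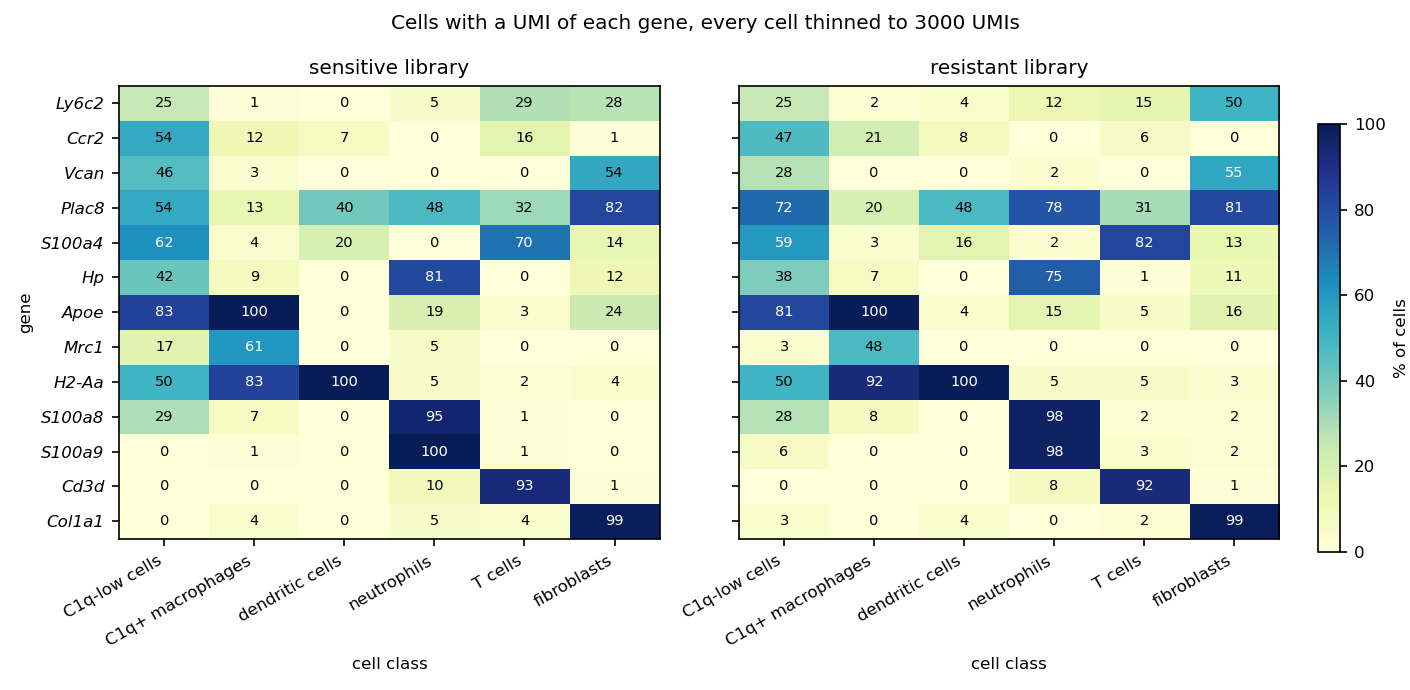
Percent of cells with a UMI of each gene (rows) in each cell class (columns), every cell thinned to 3000 UMIs, for the sensitive library (left) and the resistant library (right). Ccr2 is found in 54.2% and 46.9% of C1q-low cells against 11.5% and 21.1% of C1q+ macrophages, and in 15.8% of sensitive T cells. Ly6c2 is also frequent in T cells and fibroblasts.

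Other markers of monocyte lineages were uneven. Treml4, a gene of nonclassical monocytes, was seen in 0 of 26 sensitive members, which allows a share of up to 11.5%, and in 2 of 32 resistant members. Zbtb46, a transcription factor of conventional dendritic cells, had no UMI in either library. Of the T cell receptor genes Trac was at 0 in both libraries, and Cd3d had a UMI in 1 resistant member. Mki67, a marker of dividing cells, was seen in 0 of 26 sensitive and 6 of 32 resistant members, with 8 UMIs in all. The resistant share had an interval of 7.21% to 36.4%, within which the sensitive limit of 11.5% falls.

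Genes of other cell types were summed over fixed lists. Neutrophil genes reached 247 CPM in sensitive and 955 CPM in resistant C1q-low cells, or 59 and 371 UMIs over 20 and 24 cells, with 7 of the 12 list genes at 0 in each library. The sum ran from 0 to 1424 CPM per sensitive cell and from 0 to 6084 per resistant cell, and S100a8, a calcium-binding protein that neutrophils and classical monocytes share, supplied 224 of the resistant UMIs. The neutrophil genes are thus higher in the resistant library, and the differences below were recomputed without the cells over 1000 CPM, which left 25 sensitive and 26 resistant cells. Sensitive over resistant, Gbp4 then came to 0.126 and Il1a to 0.261, close to the values given below with all cells, and Ccrl2, Tmsb10 and Hilpda to 0.382, 0.481 and 0.536. Of these, Tmsb10 and Hilpda left the intervals they had with all cells, and Hilpda was no longer past 2-fold. The median log2 ratio of interferon gamma-induced genes was −0.35. The other lists were low and gave 25.2 and 2.57 CPM for T and NK cells, 21.0 and 7.72 for B cells, 29.4 and 23.2 for fibroblasts, 4.19 and 20.6 for epithelium and 0 in both libraries for mast cells. Dendritic cell genes summed to 378 and 360 CPM.

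Summed over all members, genes of classical monocytes were higher and MHC class II genes lower than in C1q+ macrophages, and the former came from part of the cells, as described below. Because C1q itself divided the classes, these contrasts are a description and not evidence for the division. A gene entered when it had at least 50 UMIs over all members, a UMI in at least 10 of them and at most 20% of its UMIs in 1 cell, which left 1565 genes outside the rule. Of these, 81 (5.18%) were at least 2-fold higher than in macrophages in both libraries and 19 (1.21%) were at most 0.5-fold in both. Among the 16 classical monocyte genes that entered, 9 were at least 2-fold higher in both libraries, among them Plac8, Clec4e, Ifitm6, Hp, Ccr2, F13a1, Vcan and Ly6c2, of which Clec4e and F13a1 are named here after their values were seen.

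Vcan, a matrix proteoglycan of classical monocytes, had 180 CPM in sensitive C1q-low cells against 6.57 CPM in macrophages, a ratio of 27.5 (13.6 to 61.3). In the resistant library it had 193 against 1.57 CPM, a ratio of 123 with a wide interval (33.0 to 1037) because macrophages held few Vcan UMIs. Macrophages of both libraries held few UMIs of the gene.

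S100a4, a calcium-binding protein linked to cell motility, had 747 and 638 CPM against 46.6 and 29.0 CPM, ratios of 16.0 (12.1 to 21.4) and 22.1 (15.6 to 32.1). Its relative S100a6 was 7.48 and 10.2 times higher, and Plac8, found in monocytes and their precursors, 10.0 and 12.8 times. The leukotriene B4 receptor Ltb4r1 was 7.55 and 12.0 times higher, haptoglobin (Hp) 9.13 and 7.25 times, the aspartic protease Napsa 6.39 and 11.1 times and the homeodomain cofactor Hopx 8.52 and 9.87 times. Of the label genes, Ccr2 was 5.57 and 4.33 times higher and Ly6c2 27.1 and 5.95 times. Several of these genes were high outside the myeloid classes or in neutrophils too. In the sensitive library S100a4 had 1007 CPM in T cells, and Hp and S100a6 had 1224 and 3515 CPM in neutrophils. Plac8 was found in 81.8% and Vcan in 54.3% of thinned sensitive fibroblasts.

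Of the 8 MHC class II presentation genes that entered, 6 were at most 0.5-fold in both libraries. H2-Eb1, a class II beta chain, had 986 and 1048 CPM in the C1q-low cells and ratios of 0.21 (0.19 to 0.24) and 0.20 (0.18 to 0.22) to macrophages. Its partner chains H2-Aa (0.33 and 0.28) and H2-Ab1 (0.32 and 0.25), the invariant chain Cd74 (0.30 and 0.23) and the peptide loaders H2-DMb1 (0.27 and 0.21) and H2-DMb2 (0.31 and 0.26) were lower as well. Per cell, the 12 list genes, which include the proteases Ctss and Lgmn (named after their values were seen), summed to a median of 113 UMIs per 10000 in the 26 sensitive cells (lowest 10.0, highest 523) and 65.6 in the 32 resistant cells (10.7 to 710), against medians of 375 and 492 in macrophages. The classes overlapped, and 4 of 26 sensitive and 4 of 32 resistant C1q-low cells had no UMI of H2-Aa, H2-Ab1, H2-Eb1 or Cd74. Apoe was at 0.23 in both libraries. The galectin-3-binding protein Lgals3bp (0.28 and 0.15), the creatine synthesis enzyme Gatm (0.32 and 0.37) and the chemokine Cxcl16 (0.32 and 0.38) completed the 10 lowest.

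Among themselves the members were not uniform, and the 37 with a Ccr2 or Ly6c2 UMI were compared with the 21 that had neither. The split uses those genes, so they were left out of what follows. It came from the counts of these same cells, and its contrasts are again a description. Of 1563 genes, 120 (7.68%) were at least 2-fold higher in the positive cells in both libraries and 43 (2.75%) were at most 0.5-fold in both. Classical monocyte genes made up 8 of those higher, out of 14 on the list that entered. Of the interferon-stimulated genes 5 of 8 were higher in positive cells as well. They were led by Ms4a4c, a membrane protein of monocytes that is on both lists, with 79 against 0 and 98 against 11 UMIs. Ifi27l2a, a small interferon-induced membrane protein, was 4.63 (2.81 to 8.11) and 3.14 (2.55 to 3.90) times higher. On the other side stood 3 of 4 tissue macrophage genes, 5 of 8 genes of oxidative stress and iron storage, and 4 of 13 lysosome genes.

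Plac8 had 261 UMIs in the 18 positive sensitive cells and 1 UMI in the 8 negative cells, and 688 against 66 UMIs among resistant cells, a CPM ratio of 9.16 (7.11 to 12.0). Vcan had 42 against 1 and 74 against 1 UMIs. S100a4 had 1021 against 72.4 CPM in the sensitive library and 1059 against 160 CPM among resistant cells, ratios of 14.1 (5.93 to 44.0) and 6.64 (4.49 to 10.1). Most UMIs of these genes thus lay in the cells with a Ccr2 or Ly6c2 UMI, although resistant cells with neither held some Plac8 and S100a4. Chil3, a chitinase-like protein of monocytes, had 66 against 0 and 145 against 1 UMIs, and Fcgr1, the high-affinity IgG receptor, was 24.4 (4.22 to 982) and 4.52 (2.53 to 8.68) times higher. Both were named after their values were seen. The matrix protein Tgfbi had 329 against 2 UMIs in the sensitive library but 298 against 57 among resistant cells, ratios of 67.0 and 4.595.

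In the negative cells the order was turned. The tetraspanin Cd63, of late endosomes, had 2347 CPM in negative and 354 CPM in positive sensitive cells, so that positive over negative came to 0.15 (0.11 to 0.20). In resistant cells it had 985 and 38.7 CPM, which gave 0.04 (0.02 to 0.08). Apoe had 9722 and 7050 CPM in the negative cells, against 1812 and 2220 CPM in the positive cells. The amino acid transporter Slc7a2 was at 0.20 and 0.07. The ferritin heavy chain Fth1 (0.29 and 0.32), the tetraspanin Cd9 (0.25 and 0.26), the lipid receptor Trem2 (0.38 and 0.40) and lysosomal acid lipase, Lipa (0.06 and 0.33), were lower in positive cells too. The acid phosphatase Acp5, of osteoclasts and macrophages, named after its values were seen, had 2 against 44 and 10 against 59 UMIs.

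**Figure D2:**
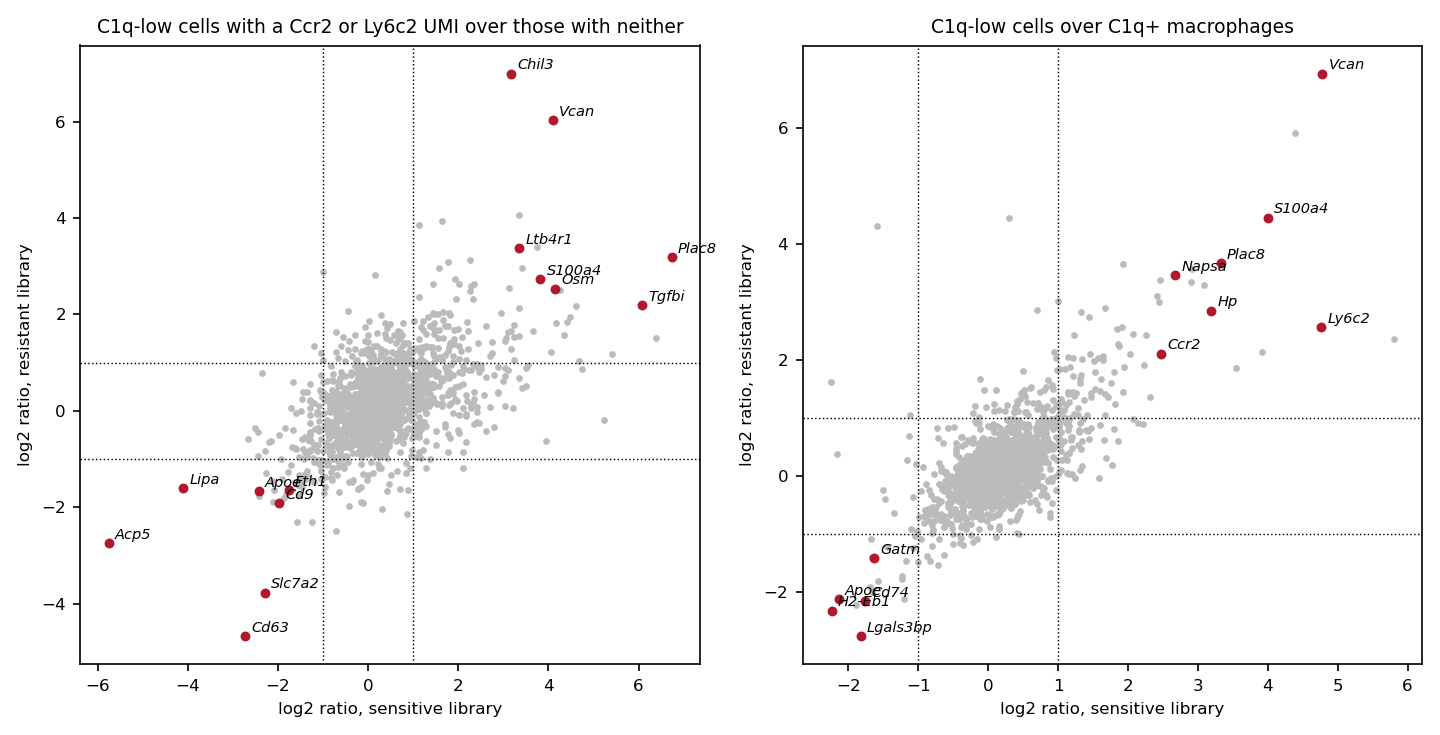
Log2 ratios of CPM in the sensitive library (horizontal) and the resistant library (vertical), 1 point per gene, for C1q-low cells with a Ccr2 or Ly6c2 UMI over those with neither (left) and for C1q-low cells over C1q+ macrophages (right), with a group at 0 UMIs set to 3 (Chil3, left) and dotted lines at 2-fold. Plac8, Vcan and S100a4 lie high in both libraries on either side, and Cd63, Slc7a2 and Acp5 lie low in both on the left.

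The study asked how the tumor microenvironment differs between sensitive and resistant tumors, so the C1q-low cells of the libraries were compared next. Most genes differed little: over 1565 genes the median ratio of CPM, sensitive over resistant, was 1.03. At least 2-fold higher in the sensitive library were 30 genes (1.92%), and 29 (1.85%) were at most 0.5-fold. Exact conditional intervals, which cover counting of UMIs and not the spread between mice or cells, lay above 1 for 181 genes and below 1 for 192. Among the genes higher in the resistant library were guanylate-binding proteins, the cytokine Il1a, the chemokine-binding receptor Ccrl2 and the lipid droplet gene Hilpda. Those higher in the sensitive library included Atp2a2, Slc7a2 and Lmna.

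Interferon gamma-induced genes were compared first. Of the 20 list genes 18 had at least 10 UMIs, and all 18 had a ratio under 1. The share under 1 among all genes at that limit was not counted. Of the 8 that passed the full limits, 8 were under 1, 2 were at most 0.5 and 3 had an interval below 1 while 5 had one that covers 1, with a median log2 ratio of −0.51 where the median over all genes tested was 0.05. In C1q+ macrophages the same 8 genes had a median ratio of 0.878, with 7 under 1. Over all 20 genes the UMIs summed to 421 and 1235, a ratio of 0.555 (0.496 to 0.621) in C1q-low cells, and to a ratio of 0.894 (0.855 to 0.936) in macrophages. Here and below the values of macrophages stand beside those of the C1q-low cells, and the difference between the classes was not tested.

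Guanylate-binding proteins are large GTPases that interferon gamma induces and that attack intracellular microbes. Gbp4 (ENSMUSG00000079363, chr5:105115767-105139586) had 4 UMIs in 3 sensitive cells, at most 2 in a cell, and 47 UMIs in 13 resistant cells, at most 8 in a cell. Its ratio was 0.139 (0.0363 to 0.379), the lowest of the genes that could be named, against 0.804 (0.616 to 1.05) in macrophages. Without the highest cell of each library it was 0.0836, and 0.244 where cells with up to 19 C1q UMIs were let in. Gbp7 had 12 and 41 UMIs in 7 and 13 cells, a ratio of 0.477 (0.228 to 0.925), and 0.296 without the highest cells. Most cells of both libraries were at 0 for either gene, and the groups overlapped there.

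A further 3 did not enter because single cells held much of their RNA or too few UMIs were seen, and they are named after their values were seen. Gbp2 (ENSMUSG00000028270, chr3:142620602-142638008) had 14 UMIs in 7 sensitive cells and 128 UMIs in 18 resistant cells, with at most 3 and 29 in a cell, and a ratio of 0.178 (0.0947 to 0.310). Without the highest cell of each library its ratio was 0.181, and with cells of up to 19 C1q UMIs let in it was 0.329. Gbp3 had 3 and 31 UMIs and Gbp5 had 1 and 33. Summed over the 5 genes, 14 of 26 sensitive cells (53.8%, 33.4 to 73.4) and 22 of 32 resistant cells (68.8%, 49.99 to 83.9) held a UMI, and the intervals overlapped. The sums lay further apart, at 34 UMIs with at most 6 in a cell against 280 UMIs with at most 54.

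The guanylate-binding genes summed here, other than Gbp4, lie in a cluster on chromosome 3. Bases before the start sites of some of them are shown because interferon response sequences can be found there. The windows are the 250 bases upstream of the start on the plus strand of RefSeq GRCm38.p6, 5′ to 3′, where capitals mark TTCNNNGAA, the gamma-activated sequence, or a pair of TTTC runs with 2 bases between them, the core bound by interferon regulatory factors, on either strand. The GENCODE annotation puts its first start of Gbp2 and Gbp5 further upstream, so the windows hold for the RefSeq starts.
Gbp2, chr3:142620413-142620662: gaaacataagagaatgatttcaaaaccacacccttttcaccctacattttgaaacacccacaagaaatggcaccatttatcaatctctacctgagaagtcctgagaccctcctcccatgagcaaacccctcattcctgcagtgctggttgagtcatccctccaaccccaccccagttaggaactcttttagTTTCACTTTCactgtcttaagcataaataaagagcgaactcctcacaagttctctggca
Gbp5, chr3:142496684-142496933: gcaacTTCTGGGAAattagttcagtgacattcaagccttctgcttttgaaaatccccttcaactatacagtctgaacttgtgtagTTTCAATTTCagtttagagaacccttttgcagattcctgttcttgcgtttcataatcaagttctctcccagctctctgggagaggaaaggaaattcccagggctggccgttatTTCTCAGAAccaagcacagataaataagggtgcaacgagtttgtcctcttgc
Gbp7, chr3:142530086-142530335: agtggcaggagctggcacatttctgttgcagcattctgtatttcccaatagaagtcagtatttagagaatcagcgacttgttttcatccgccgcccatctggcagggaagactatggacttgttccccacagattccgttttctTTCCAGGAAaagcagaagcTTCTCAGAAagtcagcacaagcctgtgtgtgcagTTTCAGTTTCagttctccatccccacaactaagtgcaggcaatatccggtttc
The Gbp2 window held the TTTC pair with its first base 59 bases before the start. The Gbp5 window held TTCNNNGAA at 245 and 52 bases and the TTTC pair at 165 bases, and the Gbp7 window held TTCNNNGAA at 106 and 87 and the TTTC pair at 53. A window matched for 15 of the 20 list genes. Of these, 11 (73.3%) held either pattern in a window, against 11.1% of all 27025 genes with a window. By window the shares were 11 of 18 (61.1%) against 9.66% of 32851. TTCNNNGAA was in 6 of the 15 genes and in 8.13% of all genes, and the TTTC pair in 8 and in 3.46%. The patterns do not overlap each other in these windows, and a match describes the letters and not binding.

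Among other interferon gamma targets, the chemokine Cxcl9, which draws activated T cells and is named after its values were seen, had 5 UMIs in 1 sensitive cell and 108 UMIs in 3 resistant cells, at most 44 in a cell, so its ratio of 0.0754 (0.0240 to 0.182) rests on 4 cells. Cd274, which encodes the checkpoint ligand PD-L1, had a UMI in 8 of 26 sensitive and 22 of 32 resistant cells, with a median of 0 (0 to 9) and 1.5 (0 to 13) UMIs per cell. Its ratio was 0.533 (0.351 to 0.791), and 0.983 (0.780 to 1.24) in macrophages. The immunoproteasome subunits Psmb8 and Psmb9 were at 0.91 and 0.88 and the peptide transporter Tap1 at 0.95, close to 1. The guanylate-binding genes and Cd274 thus departed from 1 further than the antigen-processing genes of the same list.

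By subset, the list sum had a ratio of 0.441 in the cells with a Ccr2 or Ly6c2 UMI and 0.794 in the cells with neither. In the latter the median turned, to a log2 ratio of 0.35 over the 4 genes with enough UMIs, none of them below 1. For Cd274 the ratios were 0.19 and 1.73, and for Gbp2 they were 0.13 and 0.28. Gbp4 was at 0.061 and 0.752, the latter on 2 against 7 UMIs with an interval of 0.076 to 3.95, and Gbp7 at 0.370 and 0.658. The guanylate-binding sum was 26 against 216 UMIs in positive cells and 8 against 64 in negative cells. Whether the subsets differ from each other was not tested, since each rests on 8 to 19 cells.

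Of the 13 inflammatory cytokines on the list 7 had at least 10 UMIs, 6 with a ratio below 1 and 1 above. Here too the share over all genes at that limit was not counted. All 3 that passed the full limits had an interval below 1, with a median log2 ratio of −0.86. Il1a, an alarmin of the interleukin-1 family, had a median of 0 (0 to 8) UMIs per sensitive cell and 2.5 (0 to 42) per resistant cell, with UMIs in 8 of 26 and 19 of 32 cells. Its 26 and 192 UMIs gave a ratio of 0.221 (0.141 to 0.333), against 0.996 (0.853 to 1.16) in macrophages. The limit on C1q bore on this value, which was 0.610 when cells with up to 19 C1q UMIs were let in. Il1b, its secreted relative, had a median of 3.5 (0 to 140) against 23.5 (0 to 134) and 1611 against 2927 CPM, a ratio of 0.550 (0.489 to 0.618), and 0.983 in macrophages. The resistant cells were higher in the median for both, while their ranges overlapped those of the sensitive cells. Osm, oncostatin M, had 558 against 821 CPM and a ratio of 0.679 (0.551 to 0.834).

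Beyond these lists, Ccrl2 (ENSMUSG00000043953, chr9:111054486-111057519), a nonsignalling receptor that presents chemerin, had a median of 1 (0 to 42) UMI per sensitive cell and 10 (0 to 83) per resistant cell. It reached 583 and 1717 CPM, a ratio of 0.340 (0.281 to 0.408), 0.743 (0.681 to 0.810) in macrophages, and 0.271 without the highest cell of each library. Tmsb10, a thymosin that binds actin monomers, had a median of 15.5 (0 to 65) against 34.5 (5 to 166) UMIs and 1737 against 4209 CPM, a ratio of 0.413 (0.369 to 0.460). It was found in 25 of 26 and 32 of 32 cells, so this difference did not rest on a few cells, and macrophages had a ratio of 0.694.

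Hilpda, which blocks lipid breakdown in droplets and is induced by low oxygen, had a median of 1 (0 to 22) against 10.5 (0 to 93) UMIs, a ratio of 0.423 (0.345 to 0.515), while macrophages were at 1.10 (0.984 to 1.23). Pde4b, a cyclic AMP phosphodiesterase, had 21 UMIs in 13 sensitive cells and 124 in 28 resistant cells, a ratio of 0.276 (0.165 to 0.441), or 0.450 with the wider C1q limit. The NAD synthesis enzyme Nampt was at 0.424 (0.262 to 0.665) and the immediate early factor Egr1 at 0.380 (0.261 to 0.542), the latter also at 0.405 in macrophages. Slpi, an antiprotease, was at 0.431 (0.309 to 0.592) in the C1q-low cells and at 6.35 (5.48 to 7.39) in macrophages, the opposite side of 1. The remaining lowest genes were Tgif1 (0.429), Egln3 (0.447) and Smap1 (0.455).

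**Figure D3:**
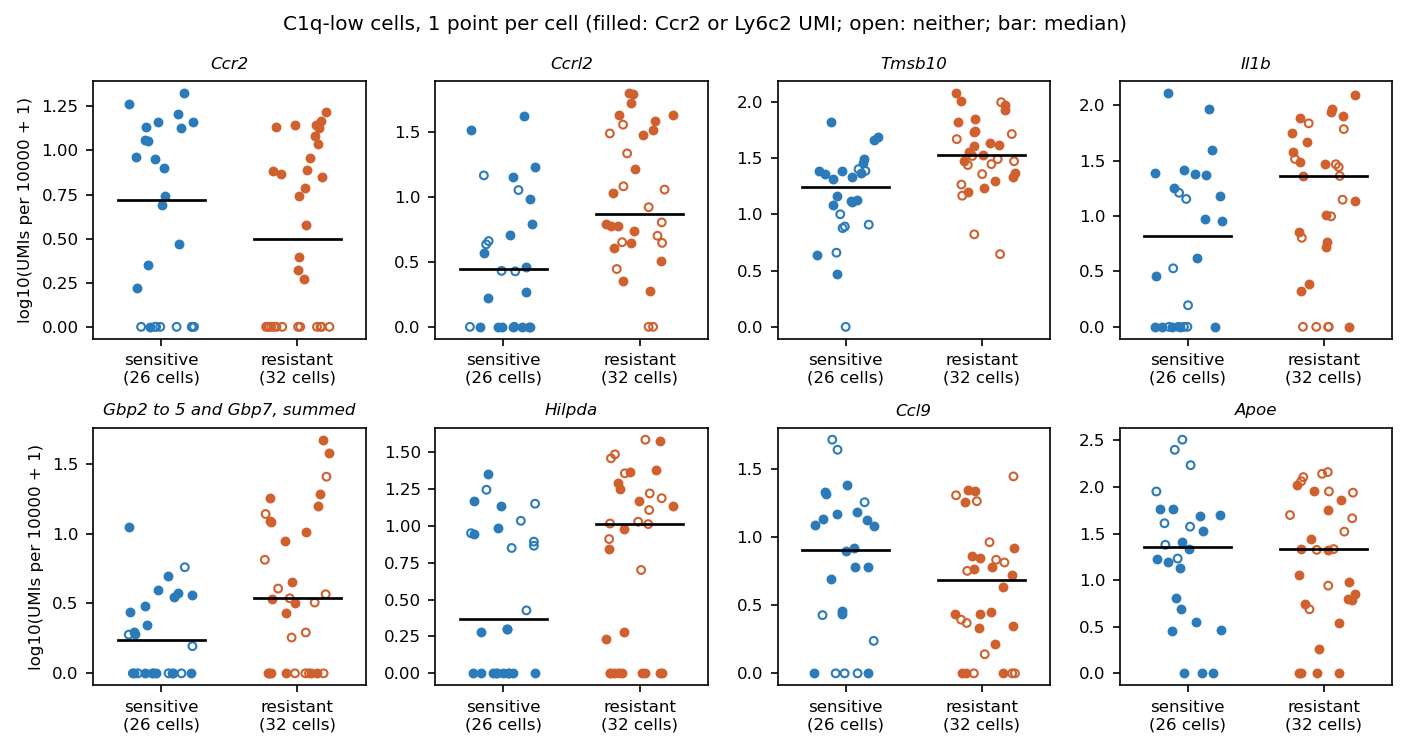
UMIs per 10000 on a log10(x + 1) axis for 7 genes and the summed guanylate-binding genes, 1 point per C1q-low cell, in 26 sensitive and 32 resistant cells, filled where the cell had a Ccr2 or Ly6c2 UMI and open where it had neither, with bars at the median. The medians of Ccrl2, Tmsb10 and Il1b are higher in the resistant cells, and the ranges overlap.

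The genes higher in the sensitive library had modest counts. Atp2a2, the calcium pump of the endoplasmic reticulum, had 36 UMIs in 15 sensitive cells and 22 in 14 resistant cells, a ratio of 2.67 (1.53 to 4.76). Lmna, which encodes lamin A of the nuclear envelope, had a median of 2 (0 to 9) against 1 (0 to 8) UMIs and a ratio of 2.28 (1.56 to 3.35), and macrophages were at 1.52 (1.22 to 1.89). Slc7a2, the cationic amino acid transporter, was at 2.44 (1.45 to 4.18) and at 4.58 (3.49 to 6.09) in macrophages. Mapre1 (2.51), Cacybp (2.51), Tbcb (2.44), Hnrnpm (2.41), Papola (2.30), Rab1a (2.23), Napa (2.22) and Renbp (2.15), several of them genes of microtubules, RNA processing, vesicle transport or metabolism, were also among the 12 highest.

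Of the CC chemokines that entered, 3 of 4 were above 1, but the list sum divided by subset, at 2.36 (2.21 to 2.52) in cells with a Ccr2 or Ly6c2 UMI and 0.704 (0.644 to 0.769) in those with neither. A single sensitive cell gave 986 of the 2655 UMIs in the former, and without the highest cell of each library the sums stood at 1.87 and 0.873. Ccl9, a myeloid chemoattractant, had a median of 6.5 (0 to 64) against 3 (0 to 45) UMIs per cell and 1187 against 703 CPM, a ratio of 1.69 (1.43 to 2.002), with 1.83 in macrophages. Ccl2, the ligand of Ccr2, had a ratio of 1.62 (1.41 to 1.86), but its median was 0.5 (0 to 105) against 1 (0 to 151) UMIs, so that a few high cells carried it. In the cells with neither Ccr2 nor Ly6c2 the Ccl2 ratio was 0.05, and macrophages were at 0.648. Ccl3 was at 1.25 (3.32 in positive and 0.970 in negative cells) and Ccl4 at 0.936 (1.39 and 0.032). Both CXC chemokines that entered were below 1, the neutrophil attractant Cxcl2 at 0.672 (0.626 to 0.720) and Cxcl16 at 0.823. By subset, Cxcl16 was at 2.44 (1.39 to 4.41) in positive and 0.308 (0.136 to 0.615) in negative cells. The CXC list sum was 1.40 in positive and 0.0943 in negative cells. In positive cells 1 sensitive cell held 484 of the 2018 UMIs, and Cxcl3, named after its values were seen, had 509 against 45 UMIs. In negative cells Cxcl3 went the other way, with 0 against 358 UMIs. Without the highest cells the CXC sums were 1.31 and 0.0487. Ccl8, named after its values were seen, had 712 and 3 UMIs, of which 710 came from 1 sensitive cell. That cell also held all 86 UMIs of Cd163 and 82 of the 101 UMIs of Mrc1 among the sensitive members, both scavenger receptors of tissue macrophages that were likewise named after their values were seen.

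Classical monocyte genes had no common direction, with 7 above 1 and 9 below 1 and a median log2 ratio of −0.12. Plac8 had a median of 4 (0 to 53) against 16 (0 to 107) UMIs per cell and a ratio of 0.566 (0.490 to 0.652), and Ifitm6, an interferon-induced membrane protein, was at 0.501 (0.267 to 0.892). Ccr2 stood on the other side with a median of 4.5 (0 to 24) against 2 (0 to 21) UMIs and a ratio of 1.37 (1.08 to 1.73). Ly6c2 was at 0.589 (0.317 to 1.05) on 17 and 47 UMIs, 0.933 after thinning, and Vcan at 0.934 (0.627 to 1.38). No common direction was shown for the label genes, since the Ly6c2 interval covers 1.

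The MHC class II list had a median log2 ratio of 0.05 in the C1q-low cells, with 5 genes above 1 and 3 below. Its ratios divided by subset: the list sum was 1.67 in cells with a Ccr2 or Ly6c2 UMI and 0.896 in those with neither. For H2-Eb1 these ratios were 2.45 and 0.48, and for H2-Aa 1.91 and 0.72. Of all members, H2-Aa had a median of 1.5 (0 to 83) against 2 (0 to 143) UMIs and a ratio of 1.02 (0.911 to 1.13). MHC class I presentation was near 1 too, at a median log2 ratio of −0.03 over 10 genes.

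Among checkpoint and costimulation genes, 7 of 9 were above 1. Sirpa, the receptor for the CD47 signal that restrains phagocytosis, had a UMI in 25 of 26 and 26 of 32 cells, a median of 3 (0 to 8) against 2 (0 to 7) and a ratio of 1.87 (1.37 to 2.56), with 1.01 in macrophages. Vsir, which encodes the checkpoint protein VISTA, was at 1.55 (1.07 to 2.25). Cd274, described above, and Pilra, an inhibitory receptor, at 0.86, were below 1. Of the suppressive enzymes and mediators, 9 of 11 were below 1, with Tgfb1 at 0.705 (0.509 to 0.967) and Hilpda the lowest, while Slc7a2 was at 2.44. The list sum was 0.919 (0.864 to 0.977), and 1.12 (1.03 to 1.22) in the cells with neither Ccr2 nor Ly6c2.

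**Figure D4:**
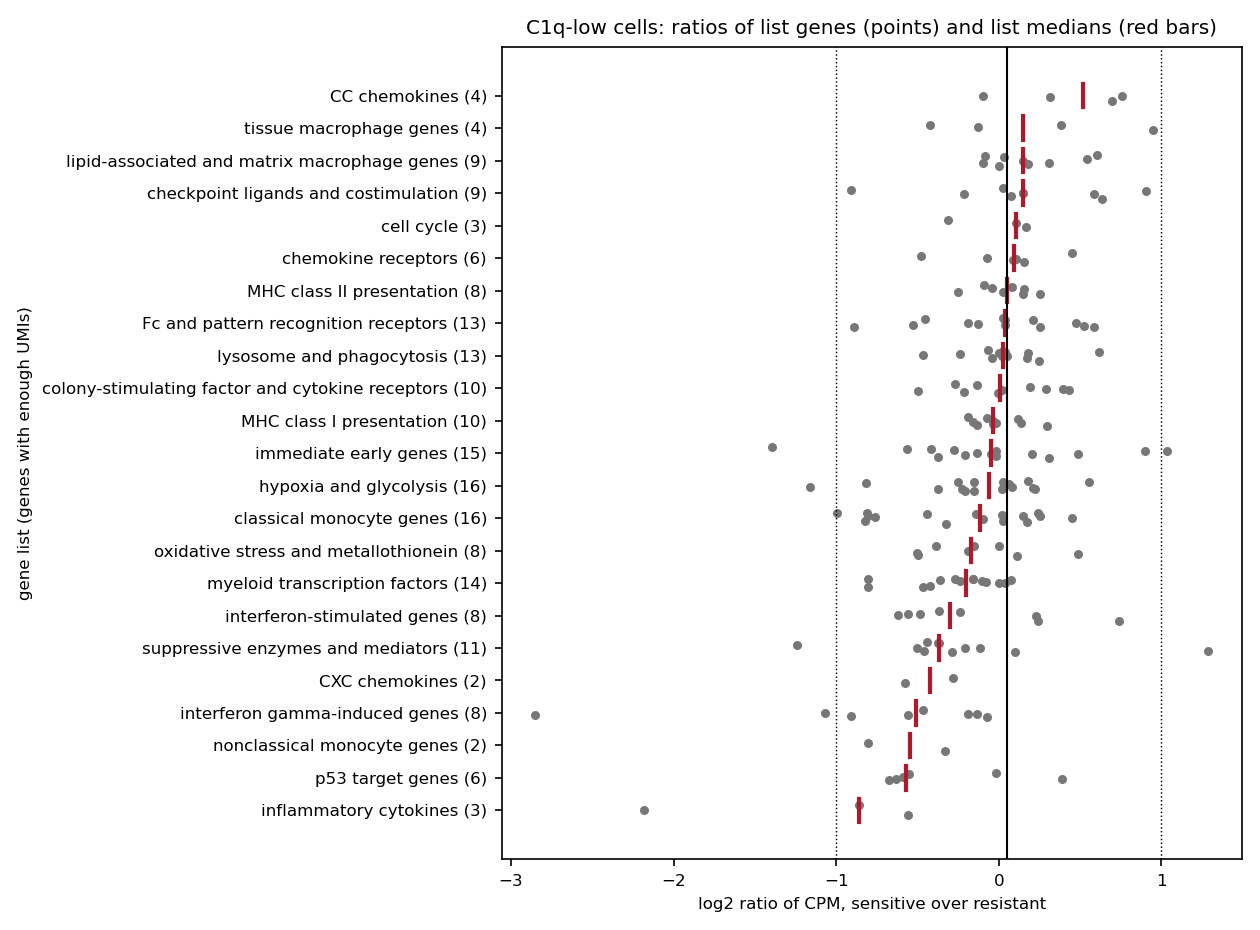
Log2 ratios of CPM, sensitive over resistant, for each eligible gene (points) of each gene list, with red bars at list medians and the number of genes in brackets. The inflammatory cytokine list lies lowest among lists of 3 or more genes, at −0.86, and the interferon gamma list has all 8 genes under 0.

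Other gene groups spread to both sides of 1. Interferon-stimulated genes had 3 above 1 and 5 below, at a median log2 ratio of −0.30 and a summed ratio of 0.781 (0.715 to 0.853). Without the cells over 1000 CPM of neutrophil genes the median was −0.59. Isg15, a ubiquitin-like protein named after its values were seen, had 57 and 238 UMIs, 25.4% of them in 1 cell, and a ratio of 0.390 (0.287 to 0.523). The list also held Ifi27l2a at 0.650 (0.552 to 0.765), which was 0.644 in macrophages too, and Slfn5 at 1.67. Fc and pattern recognition receptors had 8 above and 5 below, the lectin Clec4d at 1.501 (1.07 to 2.10) and the activating Fc receptor Fcgr4 at 0.538 (0.365 to 0.779). Lysosome genes had 9 above and 4 below, with the protease Ctsh at 1.53 (1.19 to 1.97). Myeloid transcription factors had 2 above and 12 below, at a median log2 ratio of −0.20, and in macrophages 13 of the 14 were below 1 as well. Hypoxia and glycolysis genes were even, 8 above and 8 below.

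DOX damages DNA, and p53 target genes report on that damage. Of 6 that entered, 5 were below 1, with a median log2 ratio of −0.57. After thinning only 3 entered and the median was 0.33, so the direction did not hold there. The kinase genes Plk2 and Plk3 were at 0.646 and 0.63, and 2 of the 6 had an interval below 1. Bax, a pore-forming inducer of apoptosis, was above 1 at 1.31, and Btg2, an antiproliferative gene, was at 0.99. In macrophages 5 of the same 6 were below 1, with a median ratio of 0.852. Both libraries were exposed to the drug, so these values do not compare treated with untreated cells.

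Some further large ratios rested on 1 or a few cells, and these genes are named after their values were seen. Gpnmb, a glycoprotein of lipid-laden macrophages, had 2 and 199 UMIs, 188 of them in 1 resistant cell. Mmp9, a collagen-degrading protease, had 1 and 54, 46 of them in 1 cell. S100a8 had 21 UMIs in 12 sensitive cells and 224 in 19 resistant cells, of which the highest 4 cells held 63, 58, 43 and 20. Its ratio was 0.153, and 0.663 without the cells over 1000 CPM of neutrophil genes. Its partner S100a9 had 1 and 10. Spp1, osteopontin, gave 1142 and 609 UMIs, which is 3.06-fold (2.77 to 3.38), but the median cell of either library held 1 UMI and the highest held 421 and 246, so that a few cells of each library carried the sum. With the wider C1q limit the ratio was 1.51.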

How the data were processed

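Droplet 3′ single-cell libraries were made by the study from magnetically enriched tumor T cells, and the deposited matrices hold UMI counts per gene and barcode that the authors made with Cell Ranger 6.0.0 (in the matrix headers) against mm10, 32285 features in each T cell library. The sensitive library held 3949 barcodes and 31690845 UMIs, and the resistant library 6116 barcodes and 35908799 UMIs. The whole-tumor libraries have another feature list and were not used. No per-sample column of another series was present.

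Members were found by the limits given above (Python 3.11.15, numpy 2.4.6, pandas 2.3.3, scipy 1.17.1, scanpy 1.11.5, matplotlib 3.10.9). The rule, the gene lists and the split by Ccr2 or Ly6c2 were chosen with earlier results of these data known. Counts were summed over members per library and given as CPM. Ratios carry exact conditional binomial 95% intervals, shares exact Clopper-Pearson intervals (a share of 0 the limit of 3 counts), and the ratio of shares a delta-method interval. A group at 0 was set to 3 counts where a fold was called. Since 1 library stands for each response, no test across genes was run.

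Genes were named by a rule: the markers Lyz2, Csf1r, Ly6c2 and Ccr2, the 12 highest and 12 lowest ratios, the 2 highest and 2 lowest of each list with those past 2-fold, the 10 highest and 10 lowest against macrophages, and the 8 on either side by rank correlation with Ly6c2. That correlation rests on few cells with a Ly6c2 UMI and is not described. Mitochondrial, ribosomal protein and unnamed predicted genes were counted and not named. A few named genes are not reported here.

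Doublets were scored with Scrublet, and of the 101 sensitive and 84 resistant barcodes with the highest scores none was a member. The libraries shared 31 barcode sequences, 1 of them a resistant member. The ratio scripts were tested on simulated data. Gene positions are from GENCODE on GRCm38, promoter windows from RefSeq.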

Additional observations from a re-analysis of the deposited data

How the results depend on the processing

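No paired analysis was possible because each response has 1 library. The share ratio was 1.26 over all deposited barcodes, where the many resistant barcodes above the mitochondrial limit enter the denominator, and it stayed within its interval under the other 10 settings. The count of genes at least 2-fold higher in the sensitive library was 16 with mitochondrial and ribosomal genes out of the total, 10 after thinning, 19 without the deepest 5% of cells, 3 with at least 200 UMIs, 1010 without a filter and 10 in members with neither Ccr2 nor Ly6c2. The count higher in the resistant library was 15 after thinning, 13 with at least 200 UMIs, 662 without a filter and 19 without cells over 1000 CPM of neutrophil genes. Thinning, the 200-UMI limit and the members with neither gene leave 493, 451 and 491 genes, no filter 10942, and of the 10 genes in members with neither, 0 were among the 30 of all members. Of the 10 after thinning 2 were among these 30, and of the 19 without the deepest cells 9. On the resistant side 8 of the 15 after thinning were among the 29, and 14 of the 19 without cells over 1000 CPM of neutrophil genes.

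In members with neither Ccr2 nor Ly6c2, median log2 ratios were 0.30 for classical monocyte genes, 0.73 for colony-stimulating factor and cytokine receptors, 0.35 for interferon gamma-induced genes, −0.24 for MHC class II and 0.26 for lysosome genes. MHC class II moved to 0.82 in the members with either gene, 0.36 with Lyz2 of at least 20 UMIs and −0.23 with C1q under 20. Hypoxia genes moved to 0.26 with limits per 10000 UMIs, and p53 targets to 0.33 after thinning, on 3 genes. Among genes past 2-fold, Mrc1 turned to 0.293 (0.0067 to 2.11) and Selenop to 0.416 (0.079 to 1.41) in members with neither, both with intervals that cover 1. Ccl12 turned to 0.803 with limits per 10000 UMIs and 0.780 without the deepest 5%. Genes within 2-fold crossed 1 in members with neither as well, such as Ccl2 (0.054) and Tgfbi (0.092). Counting every setting, 2356 ratios of single genes stayed within their counting intervals, 343 left them, and 4 past 2-fold turned to the other side of 1. List medians were set against the medians of their genes' bounds, which are wide and no interval of the median. By these, 405 stayed inside and 26 did not. Leaving out putative doublets removed no member, so the labels of that setting were fixed in advance. The splits by Ccr2 or Ly6c2, the neutrophil limit and the removal of the highest cells were chosen after seeing the data. The causes were not tested, and depth limits every gene with few UMIs over 58 cells.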
